A study of Rattus norvegicus with 4 samples.

Results

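Antioxidant enzymes remove reactive oxygen species and their products. A set of 10 genes grouped under that name was followed in a low-REST and a high-REST clone of the rat pheochromocytoma line PC12. The 10 genes are Sod1, Sod2, Sod3, Cat, Gpx1, Gpx3, Nqo1, Hmox1, Prdx1 and Fmo2, out of 25810 genes with a count. Of these, 8 were picked by name, and Sod3 and Fmo2 were chosen by their counts, because neither wtPC12 library held a read of them, so their difference between the clones is given as a description and not as a test. The count files held 9 of the 10 genes under these symbols, and counts of Gpx1 were not analysed here. PC12 is a chromaffin tumour line, and REST is a repressor of neural genes that most neural cells keep low. RNA of clone wtPC12 (labelled wild type, low REST) and of clone hrPC12 (labelled high REST, earlier called PC12-27) was sequenced in 2 libraries per clone, with no treatment named for either. Each REST level is represented by 1 clone that arose within the same line, so the REST level cannot be told apart from whatever else differs between the clones. The labels do not say whether the libraries of a clone came from separate cultures, and p values measure only the spread between them.

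Between 20975027 and 27246502 reads were counted on genes per library. Counts were divided by the effective library size (library total times edgeR's TMM factor) and scaled to the mean of the 4 libraries, which gives the normalized counts below, and they can be compared between libraries but not between genes, since they are not divided by length. Log2 fold changes (log2 FC) give hrPC12 relative to wtPC12 and come from a quasi-likelihood fit in edgeR over 13726 tested genes, with p values adjusted after Benjamini and Hochberg. A gene passed the test when its adjusted p was under 0.01, and it was differentially expressed (DE) when its log2 FC also lay past 2 in either direction. Rest itself had 43.0 and 132 normalized counts in the wtPC12 libraries and 964 and 915 in the hrPC12 libraries, with a log2 FC of 3.42 (standard error, SE, 0.57; adjusted p = 0.0115), which just missed the test. Leaving out wtPC12 replicate 1 moved it to 2.80 and leaving out wtPC12 replicate 2 to 4.44. Counts of DE markers stand beside 5.46% of all tested genes that were DE and lower and 4.84% that were DE and higher. Chromaffin markers were DE and lower in hrPC12 for 6 of 9 tested genes. The summed level of the list was 891404 to 1052130 normalized counts in wtPC12 and 47428 to 51551 in hrPC12. Chgb, with 687936 and 626776, made up most of the wtPC12 sums. Ddc had higher values in hrPC12, 26281 and 27995 against 24196 and 20841 (log2 FC 0.27, adjusted p = 0.322), and was the largest part of the hrPC12 sums. Hand2 (−0.85, adjusted p = 0.0979) and Gata3 (−0.03, adjusted p = 0.931) did not pass either. Of the fibroblast markers 3 of 6 tested genes were DE and higher, with sums of 16304 to 18082 in wtPC12 and 92795 to 97326 in hrPC12. Col3a1, with 83801 and 88143 normalized counts, made up most of the hrPC12 sums, while Thy1 (log2 FC −0.99, adjusted p = 0.0137) and Dcn (−3.10, adjusted p = 0.0182) had lower values in hrPC12 without passing. Among leukocyte markers 1 of 3 tested genes was DE and higher (sums of 47.4 to 52.3 and of 433 to 509), with at most 1 read of the defining gene Ptprc in any library. The endothelial list had 1 of 3 tested genes DE and higher, and its sums were 95.4 to 115 in wtPC12 and 619 to 627 in hrPC12. That DE gene was Vwf, with 564 and 560 of the hrPC12 sums, while Pecam1 had at most 2 reads in any library and Cdh5 had 9.31 and 7.21 normalized counts in wtPC12 and 5.93 and 6.07 in hrPC12. The part of these marker differences in the results below was not tested.

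Cells turn superoxide into hydrogen peroxide with superoxide dismutases, of which SOD1 works in the cytosol, SOD2 in the mitochondrial matrix and SOD3 outside the cell. Catalase in peroxisomes, the selenium-dependent glutathione peroxidases and the thiol-dependent peroxiredoxins then break the peroxide down. NQO1 reduces quinones and heme oxygenase 1, the product of Hmox1, opens the heme ring, and both are classical targets of the transcription factor NRF2 (gene Nfe2l2), which KEAP1 holds in check and which binds the antioxidant response element together with small MAF proteins. Hmox1 is also repressed by BACH1. Fmo2 encodes a flavin-containing monooxygenase, a microsomal enzyme best known from the lung that oxidizes sulfur and nitrogen compounds. It is grouped here with the antioxidant enzyme genes, although that activity is not the removal of reactive oxygen species.

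Of the tested antioxidant enzyme genes only Hmox1 passed the test, and it was about 10.7-fold lower in hrPC12. Sod3 and Fmo2, which had no read in wtPC12, had from 350 to 961 reads in each hrPC12 library. Cat, Nqo1, Prdx1 and Gpx3 had hrPC12 values that all exceeded the wtPC12 ones without passing the test, Sod1 had lower ones, and Sod2 overlapped between the clones. In numbers, 7 of the 9 genes could be tested, of which 1 was lower and 0 were higher past an adjusted p of 0.01, where 7.14% of all tested genes were lower and 5.94% were higher. Past both thresholds the count was the same 1 gene, against 5.46% of all tested genes lower and 4.84% higher. At an unadjusted p under 0.05, 5 of the 7 genes were counted, as were 46.3% of all tested genes. DESeq2 also called 1 of the 7 lower and 0 higher, where it called 14% of all tested genes lower and 13.7% higher. Without overlap between the clones 2 of the 7 lay lower and 4 higher, as did 35.6% and 37.9% of all tested genes. Over the 7 genes the log2 FC had a median of 0.59, against 0.06 over all tested genes.

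**Figure D1:**
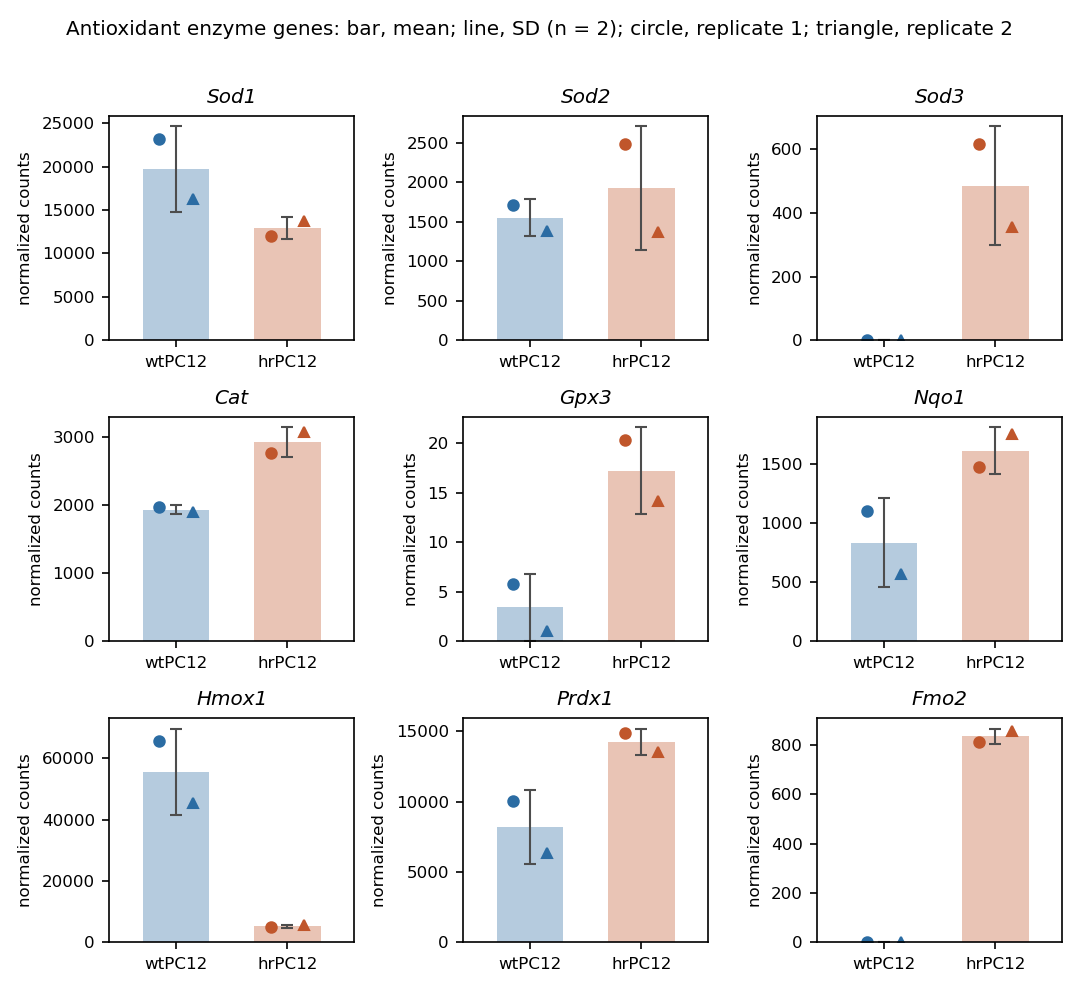
Normalized counts (vertical axis, linear and starting at 0) of the 9 genes found in the count files, with the 2 libraries of each clone as a circle (replicate 1) and a triangle (replicate 2), the mean as a bar and the SD as a line. Hmox1 stands between 45588 and 65584 in wtPC12 and between 4878 and 5551 in hrPC12, Sod3 and Fmo2 are at 0 in wtPC12, and the circle of Sod2 in hrPC12 lies well above the other 3 points.

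Sod1, the cytosolic copper-zinc enzyme, had 23186 and 16244 normalized counts in the wtPC12 libraries and 11992 and 13773 in the hrPC12 libraries. Both hrPC12 values lay under both wtPC12 values, but the wtPC12 libraries differed from each other by more than the clones' nearest libraries did. The log2 FC was −0.61 (SE 0.24, adjusted p = 0.110, unadjusted p = 0.0511), and with each library left out in turn it ran from −0.85 to −0.36. Ccs, which codes for the chaperone that loads copper into SOD1, had 2314 and 1612 in wtPC12 and 1430 and 1603 in hrPC12 (log2 FC −0.37, SE 0.24, adjusted p = 0.275). Neither gene passed the test. Alignments listed as not unique, 5.85% to 9.13% of all those accounted for per library, were not counted on genes, so the levels of genes with near-identical copies in the genome, among them Sod1, Prdx1 and Fth1, are uncertain.

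Sod2, the mitochondrial manganese enzyme, had 1716 and 1382 normalized counts in wtPC12 and 2475 and 1372 in hrPC12. Replicate 1 of hrPC12 stood above the other 3 libraries, and replicate 2 stood under both wtPC12 libraries. The log2 FC was 0.31 (SE 0.33, adjusted p = 0.488), and it was −0.17 without hrPC12 replicate 1, so the direction rested on that library.

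Sod3, the secreted enzyme, had 0 reads in both wtPC12 libraries and 729 and 350 reads in hrPC12, or 617 and 354 normalized counts. Since 0 reads still allow a true level of up to 3 per library, that level was taken as the floor, and against it Sod3 was at least 148-fold higher in hrPC12, at least 108-fold without hrPC12 replicate 1 and at least 188-fold without replicate 2. This floor and the one used for Fmo2 cover counting error only. Among the 1990 genes that had reads in hrPC12 and none in wtPC12, Sod3 ranked 9 and Fmo2 ranked 4 by mean normalized count. Of the found genes picked by name, the one nearest to that limit was Gpx3, with 5 and 1 reads in wtPC12.

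Cat, the catalase gene, had 1979 and 1893 normalized counts in wtPC12 and 2767 and 3077 in hrPC12. Its replicates lay close together (1936 ± 60.4 and 2922 ± 220, SD, n = 2) and the clones did not overlap. The log2 FC was 0.59 (SE 0.17, adjusted p = 0.0492), or 1.51-fold, which is past an adjusted p of 0.05 and not past 0.01. The adjusted p under the other settings with all libraries, edgeR or DESeq2, ranged from 0.0445 to 0.0844. Of the 14 tested genes of peroxisome assembly and oxidation, where catalase resides, 1 passed and was lower and 0 passed and were higher, with a median log2 FC of −0.26. That gene was Pex6, an ATPase of the peroxisomal import machinery, with a log2 FC of −1.44 (SE 0.22, adjusted p = 0.00855), and it missed the test when any one library was left out, with adjusted p from 0.0163 to 0.032.

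Gpx3, the gene of the glutathione peroxidase of plasma, was close to the limit of detection. Its reads were 5 and 1 in wtPC12 and 24 and 14 in hrPC12, or 5.82, 1.03, 20.3 and 14.2 normalized counts. Summed over each clone, 38 reads stood against 6, a ratio of 5.34 per effective library size with an exact 95% interval of 2.24 to 15.5 that covers counting error only. The fitted log2 FC was 2.34 (SE 0.79, adjusted p = 0.0766), and leaving out wtPC12 replicate 1 gave 3.89 and leaving out replicate 2 gave 1.55. At this depth the fold was therefore known only coarsely.

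Prdx1, a cytosolic peroxiredoxin, had 10085 and 6335 normalized counts in wtPC12 and 14919 and 13567 in hrPC12. The clones did not overlap, although the wtPC12 libraries lay far apart. Its log2 FC was 0.79 (SE 0.27, adjusted p = 0.0773), or 1.73-fold, and DESeq2 gave an adjusted p of 0.0456. With each library left out in turn the log2 FC ran from 0.50 to 1.14.

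Nqo1, the quinone reductase gene, had 1099 and 569 normalized counts in wtPC12 and 1471 and 1748 in hrPC12. Both hrPC12 libraries were above both wtPC12 libraries, again with a wide gap inside wtPC12. The log2 FC was 0.95 (SE 0.36, adjusted p = 0.0987), or 1.93-fold, and leaving out wtPC12 replicate 1 gave 1.47 and leaving out replicate 2 gave 0.55. Its paralog Nqo2, a quinone reductase that uses another cosubstrate, had 14.0 and 19.6 normalized counts in wtPC12 and 171 and 172 in hrPC12, and it was DE with a log2 FC of 3.34 (SE 0.37, adjusted p = 0.00357).

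Hmox1 had 65584 and 45588 normalized counts in wtPC12 and 4878 and 5551 in hrPC12. The means were 55586 ± 14140 and 5214 ± 476 (SD, n = 2), and the lower wtPC12 library was far above the higher hrPC12 library. Its log2 FC was −3.41 (SE 0.28, adjusted p = 0.00141), which makes it a DE gene, and it lay between −3.65 and −3.16 with each library left out. It kept an adjusted p under 0.01 without each of the other libraries, but not without wtPC12 replicate 2 (adjusted p = 0.0149), a setting in which no tested gene passed, so that every other edgeR call named here was also lost there, and the smallest adjusted p was 0.0134. Hmox2, the gene of the constitutive heme oxygenase, had 2422 and 1873 in wtPC12 and 1338 and 1566 in hrPC12, a log2 FC of −0.56 (SE 0.22, adjusted p = 0.103).

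**Figure D2:**
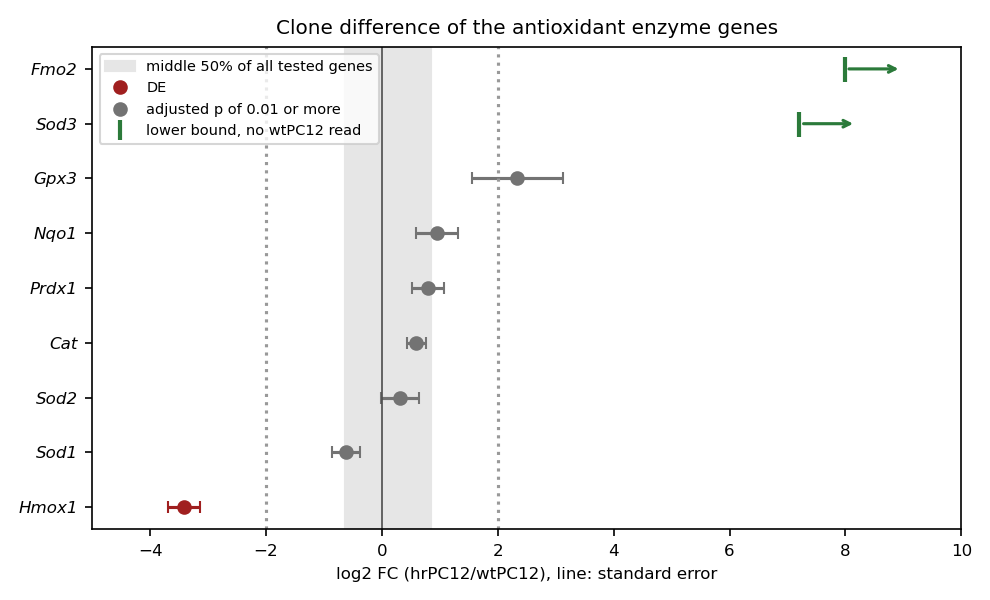
Log2 FC of hrPC12 over wtPC12 (horizontal axis) with its standard error for the 7 tested genes, and lower bounds with arrows for Sod3 and Fmo2, which had no wtPC12 read. Dotted lines mark a log2 FC of 2 in either direction and the grey band the middle 50% of all tested genes. Hmox1 at −3.41 is the DE gene, the bounds of Sod3 and Fmo2 stand at 7.21 and 7.99, and Gpx3 at 2.34 has the widest standard error.

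Fmo2 had 0 reads in both wtPC12 libraries and 961 and 848 reads in hrPC12, or 814 and 858 normalized counts. The hrPC12 libraries were close to each other, and with the floor of 3 reads Fmo2 was at least 254-fold higher, at least 261-fold without hrPC12 replicate 1 and at least 247-fold without replicate 2. In the rat assembly GRCr8 the genes Fmo4, Fmo1, Fmo2 and Fmo6 follow one another on chromosome 13, and Fmo5 lies on chromosome 2. Its relatives Fmo1, Fmo4 and Fmo5 each had more normalized counts in both hrPC12 libraries than in either library of the other clone, at low levels in wtPC12. Of all tested genes, 37.9% lay higher without overlap in this way. Fmo4 had 4.65 and 1.03 normalized counts in wtPC12 and 212 and 194 in hrPC12, and it was DE with a log2 FC of 6.14 (SE 0.61, adjusted p = 0.00248). Because so few wtPC12 reads stood behind it, that value was 7.44 when wtPC12 replicate 1 was left out and 5.41 when replicate 2 was. Fmo5 had 3.49 and 6.18 in wtPC12 and 30.5 and 16.2 in hrPC12 (log2 FC 2.24, SE 0.63, adjusted p = 0.0481). Fmo1, with 0 reads in wtPC12 and 6 and 5 in hrPC12, was not tested because one clone held no read.

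The sequence around the start of Fmo2 is shown because it is the gene without a wtPC12 read for which a promoter window was at hand. It comes from RefSeq (GRCr8, chr13:77777485-77777784, minus strand, 300 bases from 250 before the annotated start to 50 after it), and its capitals mark the CCAAT box (letters CCAAT, searched on both strands, here as its complement), a letter string that 37.5% of all 33469 promoter windows hold.
Fmo2: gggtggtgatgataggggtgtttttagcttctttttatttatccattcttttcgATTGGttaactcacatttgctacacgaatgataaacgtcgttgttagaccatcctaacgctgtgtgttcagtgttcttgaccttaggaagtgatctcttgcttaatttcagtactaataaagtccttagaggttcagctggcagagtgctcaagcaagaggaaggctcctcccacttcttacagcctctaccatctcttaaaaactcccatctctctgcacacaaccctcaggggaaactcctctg
With 43.3% G and C and 5 CpG dinucleotides it had the fewest of either among the 8 antioxidant enzyme genes with a window, whose other windows held 54.7% to 72.0% G and C and 9 to 36 CpG. The median of all windows was 51.7% and 7 CpG. No TATA box (TATAAA), AP-1 site (TGAGTCA), antioxidant response element core (TGACNNNGC) or REST element piece (TTCAGCACC, GGACAGC) was in this window. The Prdx1 window held the piece GGACAGC, beginning 117 bases before the annotated start, as did 6.59% of all windows.

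The antioxidant response element core TGACNNNGC was searched on both strands in the windows of the antioxidant enzyme genes, since NRF2 binds it. It was found in those of Sod2 and Prdx1, and in 12.1% of all promoter windows. For Hmox1 and Sod3 no window was at hand, so whether they hold the core was not tested. Sequence outside the windows was not searched for any gene. The match of Sod2 began 35 bases before the annotated start (chr1:50050183-50050215, minus strand) and that of Prdx1 began 135 bases before it (chr5:135383759-135383791, plus strand). A match shown for comparison, chosen after its values were seen, is that of Gclm, a subunit gene of the first enzyme of glutathione synthesis, which began 172 bases before the start (chr2:213031951-213031983, plus strand). All 3 are from GRCr8, the capitals mark the match, which lies on the opposite strand and so reads from its complement, and in Prdx1 it overlaps an AP-1 site (TGAGTCA, in 4.63% of all windows).
Sod2: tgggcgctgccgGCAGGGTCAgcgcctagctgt
Prdx1: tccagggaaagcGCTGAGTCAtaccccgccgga
Gclm: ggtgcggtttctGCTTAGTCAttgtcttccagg
None of the 3 genes passed the test between the clones. Gclm had 2609 and 2751 normalized counts in wtPC12 and 2917 and 3018 in hrPC12 (log2 FC 0.15, SE 0.16, adjusted p = 0.498). Windows of Hmox2 and Txnrd1 also held the core, and these genes had a log2 FC of −0.56 and −0.31 without passing. A match is a string of letters and does not show binding.

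Several genes held unequal counts in the 2 hrPC12 libraries together with their neighbours along the chromosome. Sod2 was 1.80-fold and Sod3 1.74-fold higher in hrPC12 replicate 1 than in replicate 2, or 0.85 and 0.80 on the log2 scale. Of the 10 tested genes nearest to Sod2 by order in GRCr8 (5 on each side), 10 were higher in replicate 1 as well, with log2 ratios from 0.65 to 0.99 and a median of 0.91. Around Sod3 it was 9 of 10 neighbours, with a median of 0.87. The medians around the other 7 genes ran from −0.12 to 0.25, and over all tested genes the median log2 ratio was −0.0048. Fmo2, at −0.08 with a neighbour median of −0.03, differed little between them. The cause of these unequal stretches was not tested. Sod3 without hrPC12 replicate 1 is given above, as is Sod2, whose sign turned.

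**Figure D3:**
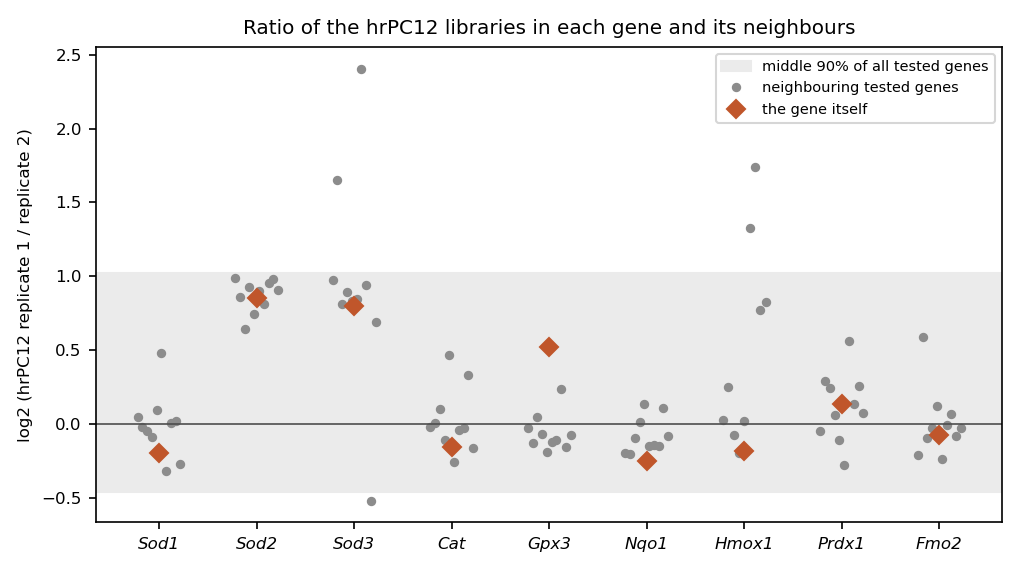
Log2 ratio of normalized counts in hrPC12 replicate 1 over replicate 2 (vertical axis) for each of the 9 genes (diamonds) and for the tested genes nearest to it along the chromosome (grey points). The grey band holds the middle 90% of all tested genes. The neighbours of Sod2 and Sod3 gather near 0.9 and those of Sod1, Cat, Gpx3, Nqo1 and Fmo2 near 0.

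The wider antioxidant pathway was followed in 12 lists of other genes, 141 in all, of which 117 were found and 99 tested. Of the 99 genes, 6 passed and were lower and 8 passed and were higher, beside 7.14% and 5.94% of all tested genes. DE genes numbered 3 lower and 7 higher, beside 5.46% and 4.84% of all tested genes. At an unadjusted p under 0.05 there were 46 of 99, beside 46.3% of all tested genes. With DESeq2 11 passed and were lower and 15 were higher, beside its 14% and 13.7% of all tested genes. The median log2 FC over the 99 genes was −0.16. Counts of genes that passed in single lists are those of edgeR unless DESeq2 is named, and stand beside the same 7.14% lower and 5.94% higher. Those of DESeq2 stand beside its 14% and 13.7%. DESeq2 passed 0 lower and 2 higher among the peroxidase relatives and 1 lower and 1 higher among NRF2 and its regulators. It passed 1 lower and 2 higher in NADPH supply, 1 lower and 3 higher in heme and iron handling, and 1 lower and 1 higher in the peroxisome list.

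**Figure D4:**
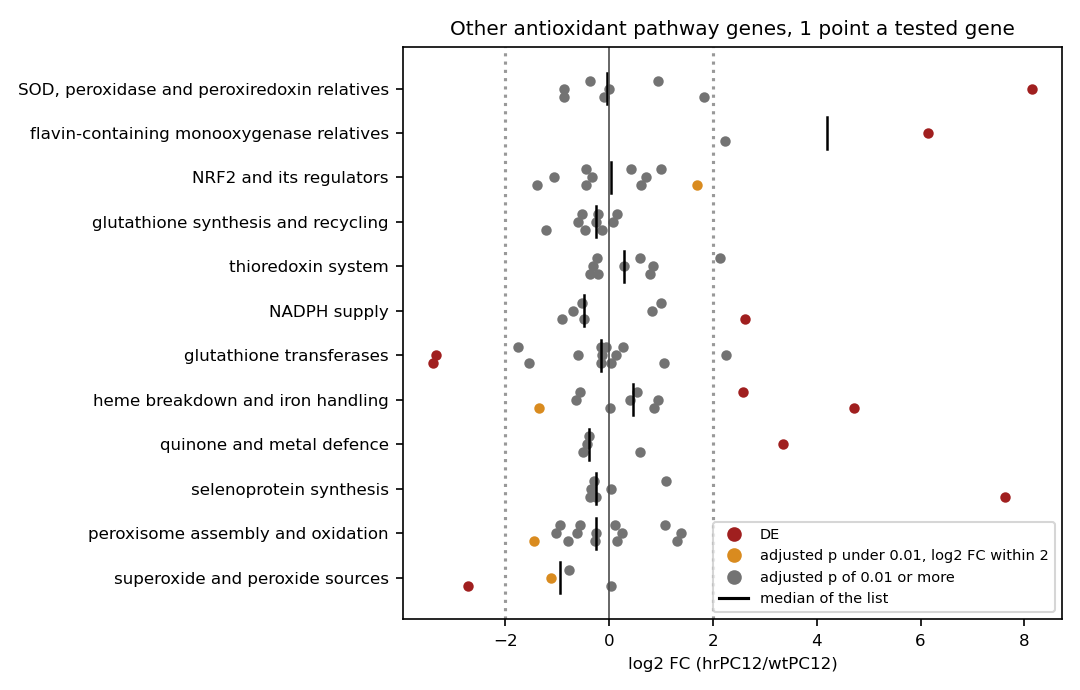
Log2 FC of hrPC12 over wtPC12 (horizontal axis) of the 99 tested genes of the 12 pathway lists, 1 point a gene, with the median of each list as a black bar and dotted lines at a log2 FC of 2 in either direction. Most points are grey (85 genes with an adjusted p of 0.01 or more) and lie within the dotted lines, and the red points farthest to the right are Gpx8, Selenop and Fmo4.

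Among the relatives of the dismutases, glutathione peroxidases and peroxiredoxins, 1 of 8 tested genes passed and was higher and 0 passed and were lower, with a median log2 FC of −0.05. Gpx8, a membrane peroxidase of the endoplasmic reticulum, had 8.14 and 3.09 normalized counts in wtPC12 and 2056 and 1133 in hrPC12, a log2 FC of 8.15 (SE 0.60, adjusted p = 0.00109). Leaving out wtPC12 replicate 1 gave 8.92, and Gpx8 lies among neighbours with counts higher in hrPC12 replicate 1, with a median log2 ratio of 0.89. Gpx4, which reduces lipid hydroperoxides in membranes, had 6092 and 4015 in wtPC12 and 2551 and 2996 in hrPC12 (log2 FC −0.87, adjusted p = 0.0547). The peroxiredoxins besides Prdx1 did not move together. Prdx4 of the endoplasmic reticulum had a log2 FC of 1.82 (adjusted p = 0.0164) and passed with DESeq2 (adjusted p = 6.2e-06), after RLE normalization, with unscaled library totals and with every gene tested. The mitochondrial Prdx3 had 0.95 (adjusted p = 0.0847), Prdx5 had −0.88 (adjusted p = 0.0541), Prdx2 had −0.09 and Prdx6 had 0.0007. Prdx2, Prdx3 and Prdx4 also lie among neighbours with higher counts in hrPC12 replicate 1, and without that library their log2 FC were −0.53, 0.49 and 1.36.

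Of the genes of NRF2 and its regulators 1 of 10 tested genes passed and was higher and 0 passed and were lower, with a median log2 FC of 0.04. It was Mafk, a small MAF partner of NRF2 and of BACH1, with 959 and 986 normalized counts in wtPC12 and 3037 and 3250 in hrPC12 (log2 FC 1.69, SE 0.17, adjusted p = 0.00261). The small MAF genes did not move together. Maff had 1321 and 871 in wtPC12 and 420 and 414 in hrPC12 (log2 FC −1.39, adjusted p = 0.0198). Mafg overlapped between the clones (log2 FC 0.43, adjusted p = 0.494). Nfe2l2 had 2036 and 1778 in wtPC12 and 2975 and 3222 in hrPC12, a log2 FC of 0.70 with an adjusted p of 0.0355. Keap1 had 2592 and 2434 in wtPC12 and 1727 and 1957 in hrPC12, a log2 FC of −0.45 with an adjusted p of 0.105. Bach1 had 394 and 757 in wtPC12 and 1183 and 1110 in hrPC12, a log2 FC of 0.99 with an adjusted p of 0.0873. In Nfe2l2, Keap1 and Bach1 the clones did not overlap and the test at 0.01 was not passed. Of all tested genes, 35.6% lay lower and 37.9% higher without overlap.

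Glutathione synthesis and recycling had 0 of 9 tested genes past the test in edgeR, with 2 of 9 at an unadjusted p under 0.05 (46.3% of all tested genes), 1 lower by DESeq2 and a median log2 FC of −0.25. Gclc, the catalytic subunit of the first enzyme, had 5685 and 4934 normalized counts in wtPC12 and 4497 and 4704 in hrPC12 (log2 FC −0.21, adjusted p = 0.373), and the cystine carrier Slc7a11 had 626 and 527 against 376 and 384 (log2 FC −0.60, adjusted p = 0.110). The thioredoxin system likewise had 0 of 9 past the test in edgeR, 2 of 9 at an unadjusted p under 0.05, beside the same 46.3%, and 1 higher by DESeq2, with a median of 0.28. Txnrd1, the cytosolic thioredoxin reductase, had a log2 FC of −0.31 (adjusted p = 0.243). Srxn1 was not analysed here.

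NADPH feeds both systems, and of its suppliers 1 of 7 tested genes passed and was higher and 0 passed and were lower, with a median log2 FC of −0.49. Nnt, the transhydrogenase of the inner mitochondrial membrane, had 1104 and 1269 normalized counts in wtPC12 and 9370 and 5129 in hrPC12 (log2 FC 2.61, SE 0.34, adjusted p = 0.00548). Of its 10 neighbours 9 were higher in hrPC12 replicate 1, with a median log2 ratio of 0.81. Nnt missed the test without wtPC12 replicate 1 (adjusted p = 0.0212) and without wtPC12 replicate 2 (adjusted p = 0.054). Without hrPC12 replicate 1 it passed, with a log2 FC of 2.11.

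Glutathione transferases couple glutathione to electrophiles, and 2 of 14 tested genes passed and were lower and 0 passed and were higher, with a median log2 FC of −0.15. By DESeq2 4 passed and were lower and 2 were higher. Gstm1 had 43309 and 19811 normalized counts in wtPC12 and 2959 and 3336 in hrPC12 (log2 FC −3.33, SE 0.43, adjusted p = 0.00548), and −2.68 without wtPC12 replicate 1. Gstm7 had 2452 and 1560 in wtPC12 and 191 and 192 in hrPC12 (log2 FC −3.39, SE 0.30, adjusted p = 0.00187). Both belong to the mu class, whose members are similar in sequence, and how reads were divided among them was not tested.

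Heme breakdown and iron handling had 1 of 10 tested genes past the test and lower and 2 past it and higher, with a median log2 FC of 0.46, beside Hmox1, which is counted above. Cp, the plasma ferroxidase ceruloplasmin, had 330 and 386 normalized counts in wtPC12 and 9724 and 9133 in hrPC12 (log2 FC 4.72, SE 0.20, adjusted p = 0.000312). The iron exporter gene Slc40a1 had 55.8 and 54.6 in wtPC12 and 313 and 351 in hrPC12 (log2 FC 2.59, SE 0.29, adjusted p = 0.00362). Slc11a2, an iron importer, fell from 3024 and 2920 to 1178 and 1152 (log2 FC −1.35, SE 0.17, adjusted p = 0.00481), a call that was lost without wtPC12 replicate 1 (adjusted p = 0.0105) and without hrPC12 replicate 2 (adjusted p = 0.0183). Fth1, the heavy ferritin chain, had 43281 and 26304 in wtPC12 and 21542 and 22970 in hrPC12 (log2 FC −0.64, SE 0.29, adjusted p = 0.146). The row that matched the light chain Ftl1 by an older symbol held at most 4 reads in any library, and Blvrb was not analysed here.

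Besides Nqo2, none of the other 4 tested genes of quinone and metal defence passed in edgeR or DESeq2, the sole gene at an unadjusted p under 0.05 was Nqo2 itself, and the list's median log2 FC was −0.38. Of selenoprotein synthesis and transport 1 of 7 tested genes passed and was higher and 0 passed and were lower, with a median of −0.25. It was Selenop, which codes for the plasma selenium carrier, with 3.49 and 6.18 normalized counts in wtPC12 and 1250 and 744 in hrPC12 (log2 FC 7.63, SE 0.51, adjusted p = 0.000877), again among neighbours higher in hrPC12 replicate 1 (median log2 ratio 0.85). The sources of superoxide and peroxide had 4 tested genes of 14 found, of which 2 passed and were lower and 0 passed and were higher, with a median of −0.95. Noxa1, an activator of NADPH oxidase, had 168 and 147 normalized counts in wtPC12 and 20.3 and 27.3 in hrPC12 (log2 FC −2.72, SE 0.36, adjusted p = 0.00617), and its adjusted p was 0.016 without wtPC12 replicate 1. Maoa, a monoamine oxidase that forms hydrogen peroxide, had 3864 and 3676 in wtPC12 and 1717 and 1733 in hrPC12 (log2 FC −1.13, SE 0.16, adjusted p = 0.00732), but with any one library left out its adjusted p was from 0.016 to 0.0343. In all, 13 of 98 pathway genes that could be placed (13.3%) had a log2 ratio of the hrPC12 libraries above 0.4 in themselves and in the median of their neighbours, as did 11.8% of all tested genes that could be placed.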

How the data were processed

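The authors aligned paired-end reads to the rat genome rn4 with TopHat2 2.0.4 and, per the submitters' processing notes, counted them with HTSeq 0.5.3. The deposited values are raw read counts per gene, 1 file per library, without normalization or filter. The authors' deposited table of means, fold changes and p values from DESeq 1.9.12 was not used, and 0 columns of values per sample were left unused. The TruSeq RNA v2 kit named in the labels does not mark strand, so reads of a gene and of an antisense partner cannot be told apart.

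R 4.3.3, edgeR 4.0.16, limma 3.58.1 and DESeq2 1.42.0 were used. TMM factors came from the 18416 genes with at least 1 read. Genes with a mean under 5 normalized counts, or with no read in one clone, were not tested. The fit was edgeR's quasi-likelihood test (legacy option on, common dispersion 0.0745) over all tested genes, adjusted by Benjamini-Hochberg. Each SE is the absolute log2 FC divided by the square root of the F statistic of that test, since the test itself reports none. A floor of 3 reads equals 2.54 to 3.49 normalized counts. With 2 libraries per clone a 2-sided exact permutation test of 1 gene cannot give a p under 0.333. On simulated counts of 13632 genes for this comparison, edgeR called 27 of 67 genes changed by a log2 FC of 1, 66 of 67 changed by 2 and 65 of 66 changed by 3, and 1 unchanged gene. The simulation gave every gene the same dispersion, set below the fitted common dispersion. Its counts therefore do not tell how many such genes would be called in these data.

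The genes and lists were chosen with earlier results of these data known. Named are the 10 genes, Rest, pathway genes that passed, a fixed set of regulators and relatives, Maff and Mafg beside Mafk, and single markers. Symbols were matched exactly or by RefSeq synonym (8 genes). The alternatives tried were DESeq2, RLE normalization, unscaled library totals, testing all genes that had any read, the filterByExpr filter, the legacy option off, a threshold of 0.05 for the adjusted p, and leaving out single libraries. Neighbours were ordered by symbol in GRCr8, where 65.2% of tested genes could be placed.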

Additional observations from a re-analysis of the deposited data

How the results depend on the processing

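No paired analysis was possible because the labels give the libraries of the clones no shared replicate numbers, and the numbers used here follow the order of deposit and only name a library. Of the alternatives for single named genes, Maff, Mafg and markers left out, 343 kept their direction and side of the threshold, 14 moved past it, 25 no longer passed it and 8 turned sign. Without wtPC12 replicate 2 edgeR called no gene (smallest adjusted p 0.0134), although 3564 genes were lower and 3234 higher at an unadjusted p under 0.05, and the cause was not tested. With a library left out, one clone has 1 library, which is taken to vary like the pair. DE genes, 749 lower and 665 higher, then numbered 0 to 859 and 0 to 962, and 1127 were higher with every gene tested, which admits genes without a read in one clone. The antioxidant enzyme genes that passed were 0 to 1 lower, and at an adjusted p under 0.05 1 was higher (Cat). Of the other pathway genes, 6 passed and were lower and 8 higher. The lower count was 10 after RLE normalization, 10 with every gene tested, 11 with DESeq2 and 0 to 5 with a library left out. The higher count was 15 with DESeq2 and 0 to 10 with a library left out. The sign turned for Sod2 (−0.17 to 0.63 with a library left out), Prdx2 (−0.53 to 0.20) and Prdx6 (−0.20 to 0.21, −0.042 after RLE normalization and −0.0375 by DESeq2), none of which passed. Rest passed under 8 alternatives, among them DESeq2 and leaving out wtPC12 replicate 1. Depth limits Gpx3, Fmo1 and Fmo5, which rest on at most 36 reads in any library.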
